A study of Homo sapiens with 40 samples.

Results

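The genes described here were the solute carrier mRNAs expressed in a human pluripotent cell line. They were chosen by symbol and by level: protein-coding genes of the total RNA table whose symbol has the form SLC, family number, A, member number, and whose mean level over the 6 unfractionated libraries reached 5 TPM (a transcript's share of a library, scaled by its length). Of 338 genes with such a symbol, 146 passed, out of 57939 genes in the table. The proteins of 65 of them work in the plasma membrane, 30 belong to the SLC25A family of mitochondrial carriers, 22 work in other organelles and 29 were given no place. The placement came from a list written by hand from general knowledge.

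Solute carriers are membrane proteins that move sugars, amino acids, nucleotides, metals and inorganic ions across a lipid bilayer. Plasma membrane carriers are translated by ribosomes docked on the endoplasmic reticulum and reach the cell surface through the secretory pathway. SLC25A carriers are encoded in the nucleus, translated in the cytosol and inserted into the inner mitochondrial membrane by the import machinery, where they exchange ADP for ATP and carry phosphate, citrate and other metabolites. Pluripotent stem cells are known for high glucose and glutamine uptake.

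H1 cells, a human embryonic stem line long established in culture and labelled wild type, were grown in mTeSR1 on matrigel. Day 0 was sampled before differentiation, and days 3 and 5 during a mesoderm protocol in serum-containing medium in which BMP4 was given first and bFGF after it. A commercial kit split the cells of each day into a cytoplasmic (CE), a membrane (ME), a soluble nuclear (SNE), a chromatin-bound nuclear (CBNE, released with micrococcal nuclease) and a pellet extract (PE, called cytoskeletal by the kit). Total RNA was sequenced from these 5 extracts and from libraries named INPUT, taken here as unfractionated cells, with 2 libraries in each of 18 groups of day and extract, and polyA RNA from day 0 cytoplasm and nucleus added 4 libraries. The labels do not say that the 2 libraries of a group came from separate cultures, so the p-values below measure only the spread between these libraries.

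Depth was read from the step size of low values, because read totals were not used here. A read on 1 kb of transcript was worth 0.708 to 0.933 TPM in CE, 0.891 to 1.29 in ME, 1.32 to 1.82 in SNE and 0.759 to 1.18 in INPUT. It was worth 13.8 to 61.7 TPM in CBNE and 3.39 to 30.9 in PE, so those shallow extracts were described by level only and never tested. Mitochondrial-encoded genes held 46.6% to 61.4% of all TPM in ME, 1.40% to 1.86% in CE, 21.4% to 28.9% in SNE and 20.3% to 22.03% in INPUT. TPM is a share of a library, so mitochondrial-encoded RNA lowers the value of every other gene in ME. Of the pluripotency markers, SOX2 was listed at 0 in every CE library while the summed level of the 6 markers was 3829 to 3830 TPM on day 0. A gene listed at 0 here may therefore be one to which no read was assigned. All 146 carriers were above 0 in each of the 24 CE, ME, SNE and INPUT libraries, except that 1 of them was at 0 in 1 day 0 INPUT library.

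In unfractionated cells a few carriers dominated. The 12 most abundant held 61.7% of the TPM summed over the 146 genes. Their order was led by SLC2A3, the high-affinity glucose carrier, at a mean of 1096 TPM. It was followed by SLC38A2, a sodium-coupled carrier of small neutral amino acids, at 886 TPM, and SLC25A5, the main ADP/ATP carrier of dividing cells, at 880 TPM. SLC7A3 (cationic amino acids, 558 TPM) and SLC25A3 (mitochondrial phosphate, 436 TPM) came next. SLC38A1, SLC25A1 and SLC7A5 had 305, 281 and 253 TPM. Of the 146 carriers, 17 had at least 100 TPM and 49 had under 10, and the median was 16.1 TPM. Just inside the threshold lay SLC13A3 at 5.14, SLC25A14 at 5.10 and SLC19A3 at 5.00 TPM, and just outside it SLC2A14 at 4.91, SLC27A1 at 4.75 and SLC36A1 at 4.74 TPM. INPUT levels chose the genes, so they are a description and were not tested.

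Some carriers owed their place to 1 day. In INPUT, 117 of the 146 had at least 5 TPM on all 3 days and 29 fell below it on at least 1 day. SLC7A4, SLC16A6, SLC40A1 and SLC8A1 reached 5 TPM on day 5 alone, with INPUT means of 35.8, 24.6, 21.4 and 16.8 TPM on that day against 1.04, 0.113, 0.0495 and 1.27 TPM on day 0. SLC38A4 reached it on day 0 alone, at 15.1 TPM against 1.20 and 0.708 on days 3 and 5. The glucose carrier SLC2A3 stood at 670 and 662 TPM on day 0, 777 and 786 on day 3, and 1844 and 1835 on day 5. SLC38A2 ran the other way in INPUT, at 1090 and 1094 TPM on day 0, 859 and 864 on day 3, and 704 and 712 on day 5. Replicates lay close together for both genes, and no day overlapped another.

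**Figure D1:**
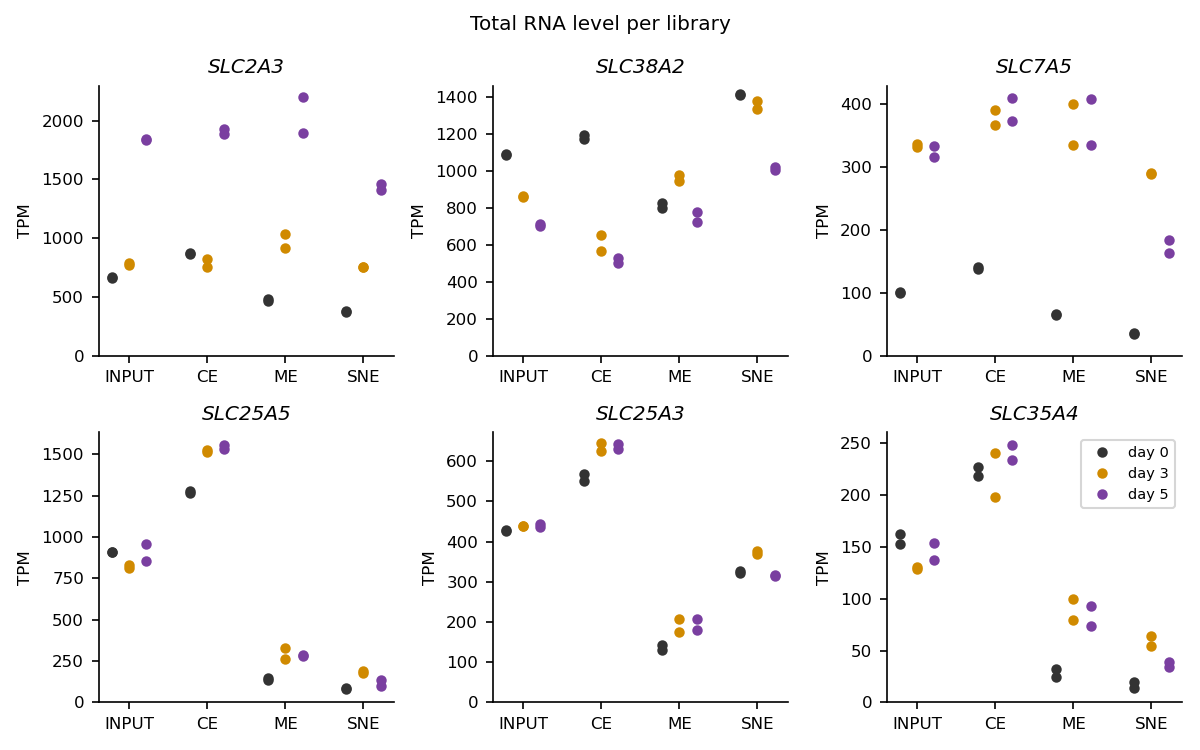
TPM of 6 abundant carriers in each library of the unfractionated (INPUT), cytoplasmic (CE), membrane (ME) and soluble nuclear (SNE) extracts, with 1 point for each library coloured by day. SLC25A5 falls from 1269 and 1279 TPM in day 0 CE to 137 and 149 in ME, while SLC2A3 reaches 2203 and 1891 TPM in ME on day 5.

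The membrane extract held the carriers in other proportions than the cytoplasmic extract. On day 0 plasma membrane carriers made up 66.9% and 67.4% of the carriers' summed TPM in the ME libraries and 53.8% and 54.1% in CE. SLC25A carriers made up 20.5% and 20.7% in ME and 34.9% and 35.2% in CE. On day 3 the plasma membrane share was 75.6% and 76.7% in ME against 50.2% and 51.9% in CE, and on day 5 it was 75.6% and 76.5% against 53.9% and 54.7%. The SLC25A share on those days was 14.8% and 15.6%, then 14.1% and 14.8% in ME, against 38.5% and 40.6%, then 34.8% and 35.9% in CE. ME and CE did not overlap on any day for either class. SNE lay between them on each day. Its plasma membrane share was 60.6% in both day 0 libraries, 68.3% and 68.0% on day 3 and 68.2% and 67.9% on day 5. Its SLC25A share was 23.3% and 23.2%, then 19.9% and 20.3%, then 17.7% and 17.3%. Shares among the carriers do not depend on how much of a library is mitochondrial-encoded RNA.

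**Figure D2:**
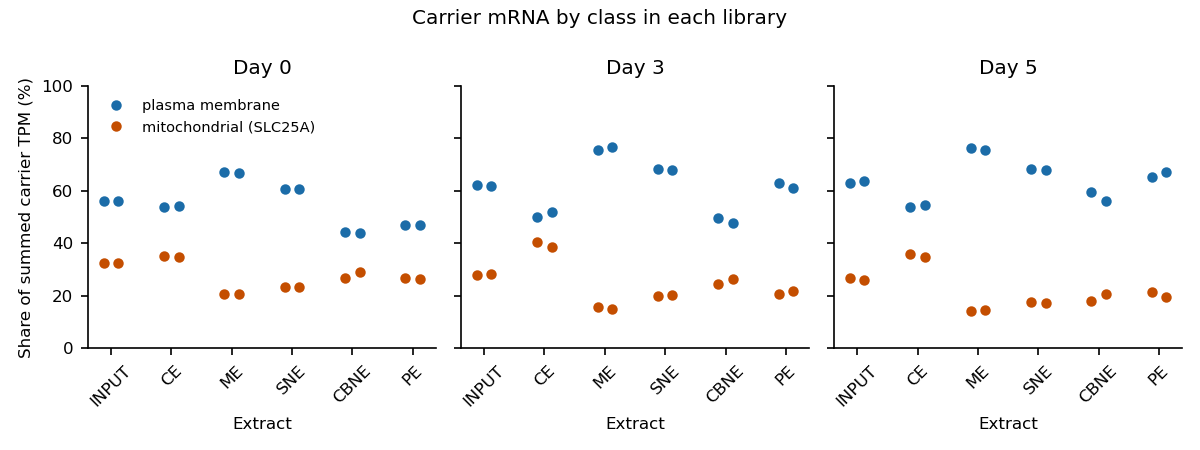
Share of the carriers' summed TPM (percent) held by the 65 plasma membrane and the 30 SLC25A mRNAs in each library, by extract and day. In CE the plasma membrane share is 50.2% to 54.7% and in ME 66.9% to 76.7%, and the SLC25A share is lower in ME than in CE on each day.

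The ratio of SLC2A3 to SLC25A5 shows the same within single libraries, free of scaling. On day 0 it was 0.68 in both CE libraries and 3.43 and 3.24 in ME. On day 3 it was 0.501 and 0.542 in CE and 3.13 and 3.50 in ME. By day 5, with SLC2A3 itself higher, the ratio was 1.21 and 1.25 in CE and 7.65 and 6.71 in ME. INPUT lay between CE and ME at 0.736 and 0.730 on day 0 and 1.92 and 2.15 on day 5. A high ratio was not particular to ME. SNE lay above ME on each day, at 4.4 and 4.7, then 4.3 and 4.0, then 10.6 and 14.5.

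Gene by gene, ME was compared with CE by limma on log2(TPM + 1) over the 24 deeper libraries. A gene was called higher or lower at a Benjamini-Hochberg adjusted p under 0.05 over 23238 genes and a log2 difference of at least 1. Differences on this scale understate those of low genes. On day 0, 0 carriers were called higher in ME (2.13% of all genes tested) and 25 lower (20.4% of all genes). Day 3 had 2 higher (1.72% of all genes) and 13 lower (10.8%), and day 5 had 5 higher (2.82%) and 13 lower (10.3%). SLC25A genes gave 14 of the 25 lower calls on day 0, and 9 of 13 on days 3 and 5, out of 30 genes. The 65 plasma membrane genes gave 7, 1 and 1 lower calls and 0, 2 and 5 higher ones. Of the 22 carriers of other organelles only SLC37A4, the glucose 6-phosphate carrier of the endoplasmic reticulum, was called, lower on day 0 (named after its value was seen).

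The median log2 difference of the plasma membrane genes was -0.33, 0.20 and 0.14 on days 0, 3 and 5, and that of the SLC25A genes -0.79, -0.60 and -0.44. Over all genes tested the medians were -0.15, 0 and 0, and over protein-coding genes -0.41, -0.12 and -0.10. How many carriers pass in each direction rests on the scale. Without mitochondrial-encoded genes in library totals, calls on the 3 days became 57 higher and 5 lower, 65 and 2, and 53 and 2. Over all genes they became 6826 higher and 954 lower, 4912 and 511, and 4988 and 592. The all-gene medians rose to 0.56, 0.45 and 0.45. On that scale the plasma membrane medians were 0.86, 1.14 and 0.99, and the SLC25A medians turned positive at 0.48, 0.32 and 0.40. Quantile normalisation gave plasma membrane medians of 0.32, 0.43 and 0.38 and SLC25A medians of -0.14, -0.34 and -0.35. Under each of the scalings tried and on each day the plasma membrane median lay above the SLC25A median.

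**Figure D3:**
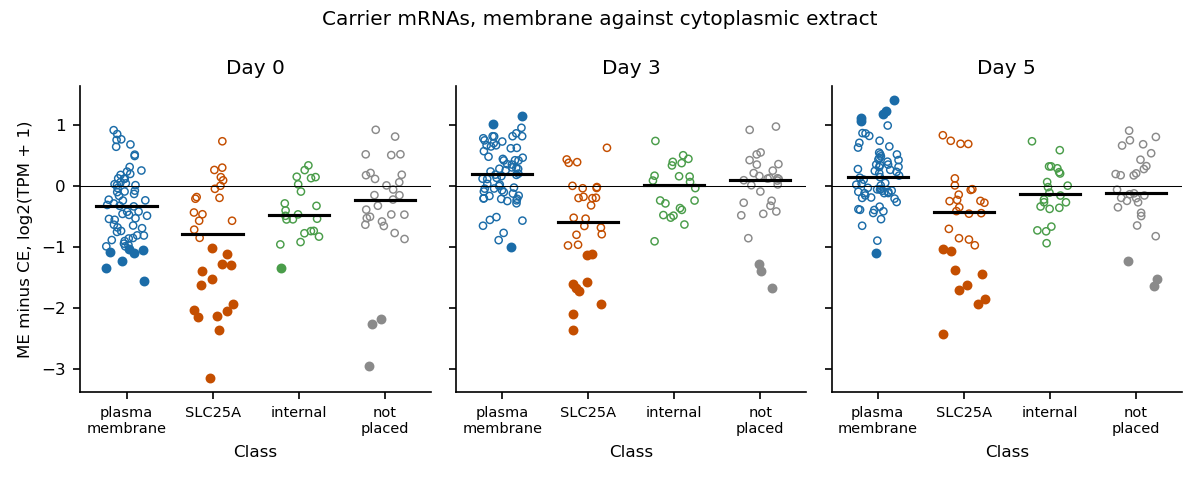
Log2 difference between the membrane and cytoplasmic extracts for each of the 146 carriers by class and day, with filled points for called genes and a bar at the class median. The median of the 65 plasma membrane genes (-0.33, 0.20 and 0.14) lies above that of the 30 SLC25A genes (-0.79, -0.60 and -0.44) on each day.

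Called lower in ME on all 3 days were 13 carriers (8.07% of all genes) and higher on all 3 days 0 (0.400%). SLC25A genes made up 9 of the 13, and SLC25A5 had the lowest mean difference of them. Most of these calls rest on the scale. Without mitochondrial-encoded genes in library totals only 5, 2 and 2 carriers were lower on the 3 days. Of those, 3, 2 and 2 were SLC25A genes. SLC25A5, which lies on chrX:119468400-119471319 (hg38, plus strand), had 1269 and 1279 TPM in day 0 CE and 137 and 149 in ME. On day 3 it had 1517 and 1528 against 332 and 262, and on day 5 1559 and 1534 against 288 and 282. Its log2 difference was -3.15 ± 0.13 (SE, n = 2 libraries a group, limma adjusted p = 5.22e-11), -2.37 and -2.44 on the 3 days, and it stayed negative with mitochondrial-encoded genes left out (-1.85, -1.37 and -1.55). SLC25A3, the phosphate carrier at chr12:98593591-98606379 (plus strand), stood at 567 and 550 TPM in day 0 CE and 130 and 142 in ME. Its ME libraries lay below its CE libraries on all 3 days, with differences of -2.03, -1.73 and -1.71. Among the 9 SLC25A genes called lower on all 3 days were also SLC25A39 (mitochondrial glutathione), SLC25A1 (citrate) and SLC25A4, the ADP/ATP carrier of heart and muscle. Their log2 differences were -1.95, -2.10 and -1.94 for SLC25A39, -1.40, -1.93 and -1.87 for SLC25A1, and -2.37, -1.58 and -1.45 for SLC25A4. SLC25A6, the ADP/ATP carrier of the pseudoautosomal region, had only 6.71 to 10.1 TPM in CE and 0.857 to 3.43 in ME, and was called lower too. How reads of its X and Y copies were assigned is not known, so these low values may not give its true level. SLC25A11, the oxoglutarate carrier, differed by -1.64, -1.67 and -1.63. SLC25A22 and SLC25A23 complete the 9 and were named after their values were seen.

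Not every SLC25A gene behaved in that way. SLC25A37, mitoferrin of developing red cells, had 15.5 and 17.2 TPM in day 0 CE and 16.2 and 15.3 in ME, and its differences of -0.05, 0.37 and 0.68 were not called. SLC25A13, the aspartate-glutamate carrier, differed by -0.58, -0.54 and -0.46, likewise short of the call. Transcript length went with these differences. The median annotated transcript of the SLC25A genes was 2385 bases and that of the plasma membrane genes 4159. Within shorter transcripts (below the carriers' median of 3462 bases) the day 3 medians were -0.05 for 22 plasma membrane and -0.75 for 22 SLC25A genes, and within longer ones 0.29 for 43 and -0.21 for 8. On day 0 the shorter and longer plasma membrane genes hardly differed, at -0.361 and -0.331, and the SLC25A genes had -0.939 and -0.596. Across the 146 genes, which share the same libraries, transcript length and the ME minus CE difference had a Spearman rho of 0.28, 0.50 and 0.50 on the 3 days. Within the plasma membrane genes rho was 0.129, 0.443 and 0.403, and within the SLC25A genes 0.265, 0.395 and 0.427. The part of transcript length in the class difference was not tested.

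Of the abundant plasma membrane carriers, SLC2A3 (chr12:7919230-7936275, minus strand) had 867 and 872 TPM in day 0 CE and 471 and 481 in ME, then 760 and 828 against 1038 and 916 on day 3. On day 5 its 2 CE libraries, at 1890 and 1925 TPM, overlapped the ME range of 1891 to 2203. The log2 differences of -0.87, 0.30 and 0.10 were not called. SLC38A2 (chr12:46358189-46372867, minus strand) stood lower in ME on day 0, at 802 and 830 TPM against 1174 and 1193, but above CE on day 3, at 947 and 980 against 570 and 652. SLC7A5, the light chain of the large neutral amino acid exchanger, fell from 138 and 140 TPM in day 0 CE to 66.6 and 65.6 in ME (log2 -1.06 ± 0.09, limma adjusted p = 1.23e-07). With mitochondrial-encoded genes left out that difference became 0.23, and on days 3 and 5 the extracts overlapped. SLC1A5, the glutamine carrier, likewise was called lower on day 0 alone (-1.09), and turned to 0.22 on the scale without mitochondrial-encoded genes. SLC3A2, the glycoprotein heavy chain that escorts SLC7A5 and SLC7A11, differed by 0.11, 0.41 and 0.13 and SLC2A1, the basal glucose carrier, by -0.32, 0.41 and 0.31, none of them called.

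On the main scale all carriers called higher in ME than in CE, on days 3 and 5, were plasma membrane carriers. Without mitochondrial-encoded genes in library totals, day 3 higher calls were 37 plasma membrane, 4 SLC25A, 10 organelle and 14 unplaced genes. On day 5 they were 32, 4, 6 and 11. The values below are on the main scale. SLC7A11, the cystine-glutamate exchanger (chr4:138164097-138242349, minus strand), had 21.5 and 22.02 TPM in day 0 ME against 12.8 and 13.7 in CE. On day 3 it had 91.6 and 108 against 39.8 and 50.3, and on day 5 51.1 and 54.3 against 18.5 and 20.1. ME exceeded CE without overlap on each day, with log2 differences of 0.67, 1.14 and 1.40, those of days 3 and 5 called (limma adjusted p = 2.29e-07 and 2.9e-08). SLC4A7, a sodium bicarbonate cotransporter, showed 35.5 and 36.9 TPM in ME against 16.5 and 18.5 on day 3 and 35.9 and 39.0 against 14.7 and 16.2 on day 5 (1.01 and 1.23). Both day 3 calls were lost without the first day 3 CE library, at 0.97 and 0.93. SLC1A3 (glutamate, 1.18), SLC8A1 (sodium-calcium exchange, 1.11) and SLC6A6 (taurine, 1.05) were called on day 5 alone.

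Of the other 4 carriers lower on all 3 days, 3 were in neither class, and all 3 lay among the 10 lowest by mean difference. SLC35A4, of the nucleotide sugar carrier family (chr5:140564456-140569103, plus strand), had 218 and 227 TPM in day 0 CE and 24.2 and 32.0 in ME. Its log2 differences were -2.96, -1.29 and -1.53. In the day 0 polyA libraries SLC35A4 was listed at 0, so how its reads were assigned is not known. SLC50A1, a sugar carrier of the SWEET family, differed by -2.18, -1.68 and -1.65, and SLC10A3, a relative of the bile acid carriers, by -2.27, -1.40 and -1.24. SLC29A1, the equilibrative nucleoside carrier, was the only plasma membrane gene lower on all 3 days, at -1.36, -1.01 and -1.10. In zinc transport SLC39A1, a plasma membrane importer, had 358 and 373 TPM in day 0 CE and 120 and 126 in ME (-1.56).

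Genes that work with the carriers gave a backdrop. Of 28 tested genes of other mitochondrial carriers and carrier import, 18, 15 and 15 were lower in ME on days 0, 3 and 5 and 0 were higher. Of 24 genes of the signal recognition particle, the translocon and the membrane insertase EMC, through which plasma membrane carriers are made, 14, 10 and 8 were lower and 0 higher. Of 6 tested sodium pump subunits 3, 1 and 1 were lower, and of 7 partners of plasma membrane carriers 4, 2 and 2. BSG, the chaperone of the lactate carriers, differed by -1.63 on day 0. ABC transporters, another large family of membrane transporters, gave 0 calls on day 0 and 1 higher call on each later day out of 25. The 9 tested SLCO organic anion carriers gave 0 on any day. All 13 mitochondrial-encoded mRNAs were higher in ME on each day.

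The gap between ME and CE moved with time. Tested as a difference of differences, it was higher on day 3 than on day 0 for 16 carriers (7.21% of all genes) and lower for 0 (0.503%). On day 5 it was higher for 15 (7.14%) and lower for 0 (0.572%). Plasma membrane genes made up 12 of the 16 and 9 of the 15, and SLC25A genes 2 and 3. The median shift of the plasma membrane genes was 0.43 and 0.58, against 0.12 and 0.20 over all genes. The ME minus CE median of protein-coding genes, given above, also rose from day 0 to both later days. All genes are thus a loose background for this shift. SLC2A3 shifted by 1.17 ± 0.09 from day 0 to day 3 (limma adjusted p = 4.64e-07), SLC38A2 by 1.20, SLC1A5 by 1.28, SLC7A3 by 1.03 and SLC7A5 by 1.01. SLC35A4 shifted by 1.67 and SLC30A1, the zinc exporter, by 1.40. SLC30A1 had 40.9 and 41.2 TPM in ME and 63.6 and 77.5 in CE on day 0, but 111 and 113 against 66.5 and 77.0 on day 3. Without the first day 3 CE library the day 3 count was 10. The mitochondrial-encoded share of ME differed over the same days, from 59.6% to 61.4% on day 0 to 47.7% to 54.7% on day 3 and 46.6% to 48.1% on day 5. Once totals omitted those genes, 4 and 3 carriers were called higher and 0 and 1 lower. Over all genes that scale gave 857 higher and 919 lower on day 3.

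The soluble nuclear extract was compared with CE in the same fit. On day 0, 57 carriers were higher in SNE (34.5% of all genes) and 17 lower (11.4%). On day 3 the numbers were 67 (35.2%) and 14 (9.23%), and on day 5 65 (40.4%) and 20 (11.1%). On all 3 days 50 carriers were higher (26.3% of all genes) and 12 lower (7.14%). The 50 comprised 21 plasma membrane, 9 SLC25A, 8 organelle and 12 unplaced genes. The all-gene median of SNE minus CE was 0.61, 0.62 and 0.75. With a common median for all libraries the balance turned to 19 carriers higher and 42 lower, 15 and 43, and 21 and 53. Over all genes it turned to 3110 higher and 5802 lower, 2685 and 6927, and 3458 and 8175. On day 5 the SNE libraries carry later library numbers than the CE libraries, and a fit with a term for this gave 13 lower. What follows is therefore about the order of the carriers more than the direction.

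Lowest in SNE relative to CE stood carriers already named. SLC25A5 had 86.8 and 80.2 TPM in day 0 SNE, 177 and 188 on day 3 and 137 and 97.6 on day 5, against at least 1269 in every CE library, with log2 differences of -3.92, -3.05 and -3.73. SLC35A4 had 19.2 and 13.5 TPM in day 0 SNE (-3.71, then -1.87 and -2.69). SLC39A1 differed by -2.65, -1.78 and -1.97. SLC7A5 stood at 36.4 and 34.96 TPM in day 0 SNE (-1.94), at 291 and 289 on day 3 (-0.38, not called) and at 183 and 164 on day 5 (-1.17). SLC2A3 was called lower on day 0 alone (-1.19).

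At the other end, most of the carriers with the highest SNE to CE differences were long genes. SLC2A13, the proton myo-inositol carrier, spans 351069 bases on chr12:39755021-40106089 (minus strand). It had 34.2 and 36.7 TPM in day 0 SNE against 3.74 and 3.85 in CE, and 53.8 and 60.0 against 2.36 and 2.57 on day 5 (2.92 and 4.06 on the log2 scale). SLC8A1, over 513784 bases of chr2:40097270-40611053 (minus strand), had 70.8 and 83.0 TPM in day 5 SNE against 3.00 and 3.19 in CE (4.25). SLC4A7 (2.62, 3.48 and 3.71), SLC1A3 (2.71, 3.23 and 4.00), SLC38A6 (2.78, 3.24 and 3.77) and SLC22A15 (2.81, 3.17 and 3.49) followed, with spans of 111700, 81980, 102620 and 93557 bases. SLC25A27, the brain uncoupling protein of the SLC25A family, spans 25279 bases, below the carriers' median of 32750, and differed by 2.71, 3.23 and 3.34. SLC10A5, a bile acid carrier relative of only 2568 bases, also ranked among the 4 highest on day 3, with 25.2 and 32.4 TPM in SNE against 1.10 and 2.75 in CE (3.397, and 2.05 and 3.15 on days 0 and 5). None of their SNE and CE libraries overlapped.

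Gene span and the SNE minus CE difference had a Spearman rho of 0.66, 0.66 and 0.72 across the 146 genes on the 3 days, a description over genes that share libraries. The 73 shorter carriers had medians of -0.13, 0.11 and -0.12 and the 73 longer ones 1.22, 1.49 and 1.54. The same split held inside the plasma membrane and the SLC25A class, the only classes split in this way. On day 0, 27 shorter plasma membrane genes had a median of -0.30 and 38 longer ones 1.19, and 19 shorter SLC25A genes -0.23 and 11 longer ones 1.37. Transcript length had a rho of 0.23, 0.36 and 0.34. On day 0 the ABC transporters gave 14 higher and 0 lower calls of 25 and the SLCO genes 7 and 0 of 9, while mitochondrial import genes gave 5 and 13 of 28.

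**Figure D4:**
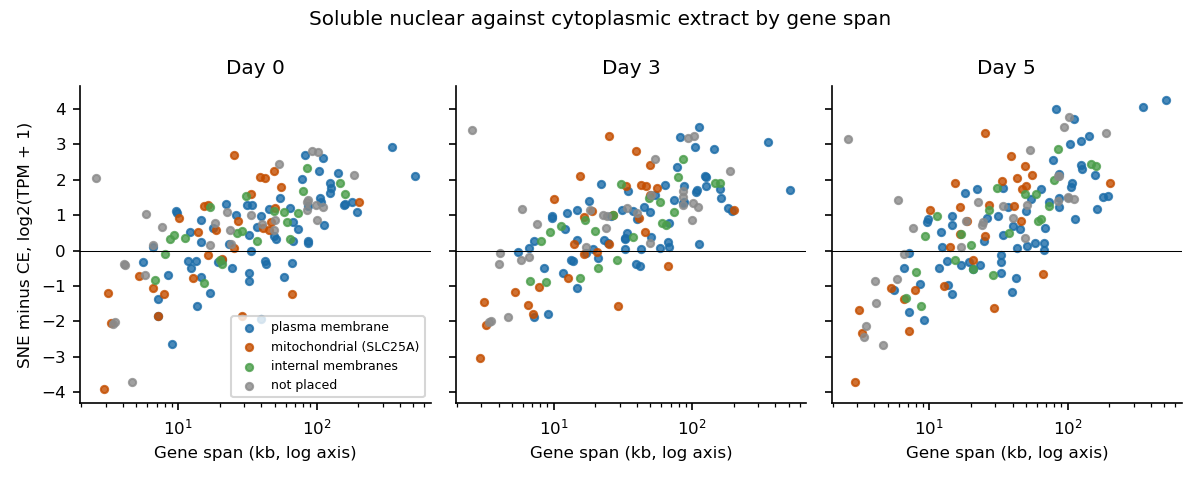
Log2 difference between the soluble nuclear and cytoplasmic extracts against gene span (kb, log axis) for the 146 carriers on each day, coloured by class. Points rise from left to right on each day (Spearman rho 0.66, 0.66 and 0.72), with SLC25A5 at the bottom (-3.92, -3.05 and -3.73).

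PolyA RNA from day 0 nucleus and cytoplasm came from a separate preparation, normalised apart. Of the 146 carriers 139 could be tested there. SLC35A4, SLC31A1, SLC7A4, SLC16A6, SLC40A1, SLC8A1 and SLC38A4 could not. SLC35A4 and SLC38A4 were listed at 0 in all 4 polyA libraries, against 158 and 15.1 TPM in day 0 INPUT. SLC31A1 had polyA means of 0.414 TPM in cytoplasm and 0.309 in nucleus, against 28.8 in INPUT. How reads of these 3 genes were assigned is not known, so their values may not give their true levels. In the nucleus 48 were higher (30.0% of 16667 genes) and 4 lower (6.22%). The 61 tested plasma membrane genes gave 19 higher and 0 lower, with a median of 0.77, and the 30 SLC25A genes gave 6 higher and 4 lower, with a median of 0.02, or -0.11 once totals omitted mitochondrial-encoded genes. Over all genes the median was 0.50. With a common median the counts became 21 higher and 11 lower.

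All 4 lower genes were SLC25A carriers. SLC25A5 had 1120 and 1097 TPM in the cytoplasm and 431 and 403 in the nucleus (-1.41 ± 0.04, limma adjusted p = 5.42e-06). SLC25A6 also differed by -1.41, at 5.98 and 6.51 TPM against 1.98 and 1.51, with the same unknown assignment of reads. SLC25A15, the ornithine carrier, differed by -1.10 and SLC25A1 by -1.05. The same family also held 3 of the 4 highest differences. SLC25A27 had 5.30 and 4.08 TPM in the cytoplasm and 57.3 and 58.1 in the nucleus (3.38), and SLC25A29, a mitochondrial carrier of basic amino acids, 20.5 and 19.2 against 172 and 173 (3.06). SLC22A31, an unplaced member of the organic ion carrier family, ranked between them and the fourth, with 7.41 and 6.55 TPM against 61.7 and 65.2 (3.02). SLC25A36, the pyrimidine nucleotide carrier, differed by 2.26. Among plasma membrane genes SLC7A3 had 375 and 389 TPM in the cytoplasm and 1134 and 1113 in the nucleus (1.56), and SLC38A2 427 and 453 against 940 and 938 (1.09). SLC2A3 (0.66), SLC25A3 (0.19) and SLC7A5 (0.19) were not called.

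The polyA difference and the day 0 SNE minus CE difference use no common library. Over 139 carriers their Pearson r was 0.51 and their Spearman rho 0.44, given as a description across genes. Both comparisons called 28 carriers higher and 3 lower, and 0 were called in opposite directions (1.14% of all genes). The 28 were 58.3% of the carriers higher in polyA nucleus and 50.0% of those higher in SNE. Over the 15592 genes in both fits the shares were 58.9% and 44.7%, so the carriers lay near the background.

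The cytoplasmic level changed with the day of differentiation. Day 3 against day 0 gave 3 carriers higher (2.69% of all genes) and 26 lower (13.4%), and day 5 against day 0 gave 11 higher (5.53%) and 28 lower (13.5%). These comparisons share the day 0 libraries. Plasma membrane genes supplied 3 of the 3 and 17 of the 26 calls on day 3, and 8 of the 11 and 20 of the 28 on day 5. SLC25A genes gave 0 higher and 3 lower calls on each day. The all-gene medians were -0.33 and -0.25. With a common median the counts turned to 11 carriers higher and 8 lower on day 3 and 18 and 14 on day 5. Over all genes that setting gave 1895 higher and 840 lower on day 3. The 117 carriers with at least 5 TPM in INPUT on all days gave 2 higher and 16 lower calls on day 3 and 6 and 16 on day 5. The other 29, which entered through the days on which they were high, gave 1 and 10, then 5 and 12.

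Among amino acid carriers, 2 of 24 were higher and 5 lower on day 3, and 3 were higher and 8 lower on day 5. The 20 with at least 5 TPM in INPUT on all days gave 2 and 4, then 2 and 5. The remaining 4, SLC7A4 and SLC38A4 among them, entered through the days on which they were high. SLC7A5 (chr16:87830023-87869488, minus strand) had 138 and 140 TPM in CE on day 0, 367 and 390 on day 3, and 373 and 409 on day 5. Both later days lay above day 0, by 1.44 ± 0.09 and 1.48 ± 0.09 on the log2 scale (limma adjusted p = 8.92e-09 and 4.72e-09). Reads of SLC7A5 may be shared with its 2 pseudogene copies, which summed to 82.9 TPM in INPUT. SLC7A11 had 12.8 and 13.7 TPM on day 0, 39.8 and 50.3 on day 3 (1.68) and 18.5 and 20.1 on day 5 (0.51, not called). Their common heavy chain SLC3A2 had 85.2 and 88.6, then 124 and 138, then 125 and 137 TPM (0.58 and 0.59, not called). Other members of the SLC7 family differed in time. SLC7A2 stayed at 21.1 and 21.8 and then 20.6 and 25.3 TPM, and stood at 114 and 127 on day 5 (2.43). SLC7A4 had at most 1.37 TPM on days 0 and 3 and 50.4 and 55.5 on day 5 (4.71). SLC7A3 had 479 and 514 TPM on day 0, 730 and 808 on day 3 and 550 and 596 on day 5, without a call.

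Other amino acid carriers fell. SLC38A2 went from 1174 and 1193 TPM on day 0 to 570 and 652 on day 3 (-0.96, not called) and 501 and 530 on day 5 (-1.20). SLC38A4 went from 15.8 and 15.4 TPM to 0.920 and 1.29, then 0.645 and 0.591 (-2.98 and -3.36). SLC6A6, the taurine carrier, dropped from 79.6 and 84.3 TPM to 12.3 and 13.6 on day 3 and stood at 23.8 and 27.3 on day 5 (-2.57 and -1.64). Each of these days lay below day 0 in every library. SLC1A3 differed by -1.96 on day 3 and by -0.85, not called, on day 5.

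Glucose and monocarboxylate carriers moved apart from one another, with 1 of 10 higher and 3 lower on day 3 and 3 higher and 2 lower on day 5. The 6 with at least 5 TPM in INPUT on all days gave 0 and 1, then 2 and 0. SLC2A3 held 867 and 872 TPM on day 0 and 760 and 828 on day 3, and rose to 1890 and 1925 on day 5 (1.13 ± 0.07, limma adjusted p = 2.66e-09). SLC2A12, a facilitative hexose carrier, had 2.60 and 3.19, then 12.7 and 17.4, then 8.79 and 9.08 TPM (2.03 and 1.35). SLC2A4, the insulin-regulated glucose carrier of muscle and fat, fell from 17.7 and 17.4 TPM to 2.58 and 1.82, then 2.45 and 2.98 (-2.55 and -2.32). In INPUT SLC2A4 reached 5 TPM on day 0 alone and SLC2A12 was below it on day 0. Both thus entered through the days on which they were high. SLC2A1 did not pass the test on either day, with 124 and 130 TPM on day 0 and 121 and 132 on day 5. SLC16A3, the lactate exporter of glycolytic cells, had 7.81 and 7.39 TPM on day 0, 10.0 and 11.7 on day 3 and 25.5 and 27.9 on day 5 (1.69). SLC16A1, its more widely expressed relative, was not called, and its replicates disagreed (9.85 and 2.30 TPM in day 0 CE, 8.20 and 19.5 in day 3 INPUT, and a standard error of 0.64).

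**Figure D5:**
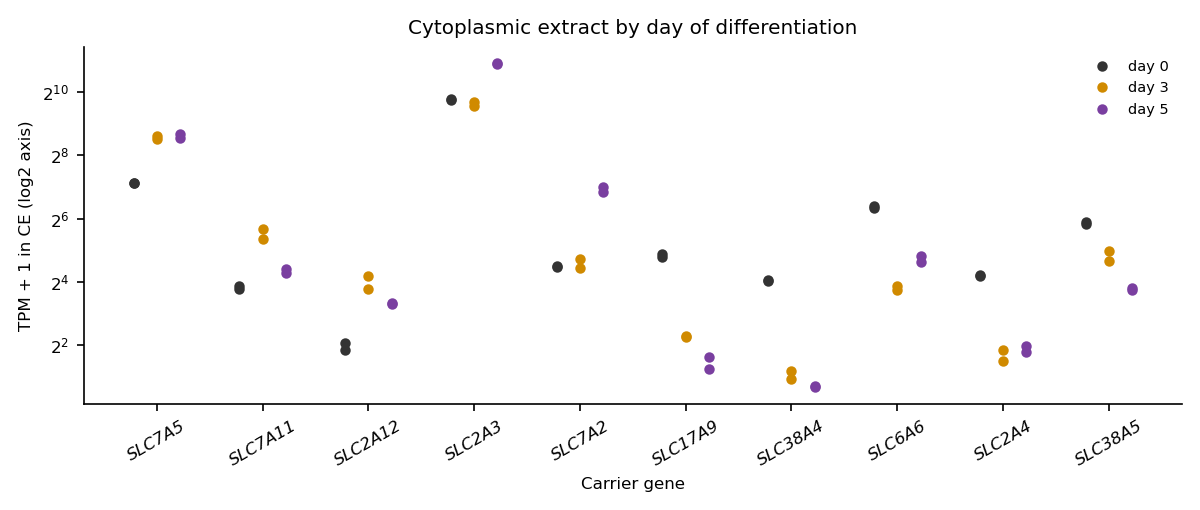
Cytoplasmic extract level (TPM + 1, log2 axis) of 10 carriers on days 0, 3 and 5, with 1 point for each library coloured by day. SLC7A5 is above its day 0 libraries on both later days, SLC7A2 and SLC2A3 are highest on day 5, and SLC38A4, SLC17A9, SLC2A4 and SLC6A6 lie below day 0 on both.

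Iron, vesicle and nucleoside carriers completed the list. SLC40A1, ferroportin, the iron exporter, had 0.0758 and 0.0650 TPM on day 0 and 26.6 and 25.8 on day 5 (4.67). SLC16A6, a monocarboxylate carrier family member, had 0.145 and 0.155 TPM on day 0 and 21.4 and 22.9 on day 5 (4.33). SLC8A1 rose from 0.486 and 0.547 to 3.00 and 3.19 TPM (1.43). SLC40A1, SLC16A6 and SLC8A1 reached 5 TPM in INPUT on day 5 alone, so their rise was built into their choice. SLC17A9, the vesicular nucleotide carrier, fell from 26.9 and 28.4 TPM to 3.90 and 3.84, then 1.38 and 2.10 (-2.56 and -3.40). SLC15A3, a peptide and histidine carrier of lysosomes, differed by -1.10 and -2.30, and SLC29A1 by -1.84 and -1.82. SLC17A9 and SLC15A3 were below 5 TPM in INPUT on day 5 and entered through the earlier days. SLC6A8, the creatine carrier, differed by -1.13 on day 5. The folate carrier SLC19A1 (-0.91 and -0.94) and the phosphate carrier SLC20A1 (-0.19 and -0.56) were not called, nor was SLC12A2, the sodium-potassium-chloride cotransporter (-0.30 and 0.78).

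None of the 4 most abundant mitochondrial carriers was called between days in CE. SLC25A5 differed by 0.26 and 0.28, SLC25A3 by 0.18 and 0.19, SLC25A1 by -0.21 and 0.14 and SLC25A39 by -0.26 and -0.35. SLC25A29 (-1.25 and -1.51) and SLC25A27 (-2.04 and -1.94) were lower on both days, and SLC25A36 on day 3 (-1.07). SLC25A27 was below 5 TPM in INPUT on day 5.

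Cell state moved with these changes. In CE the 7 primitive streak and mesoderm markers summed to 113 to 118 TPM on day 0, 152 to 172 on day 3 and 2231 to 2314 on day 5, and 6 of 7 were higher on day 5. The seventh, KDR, an early mesoderm and endothelial receptor, was lower on days 3 and 5 (-3.14 and -1.77). On day 3 HAND1 (4.6), EOMES (3.8), MIXL1 (3.2) and TBXT (2.4) were already called higher, and MESP1 and PDGFRA were not called. The 6 pluripotency markers summed to 3829 to 3830, 2397 to 2420 and 1700 to 1711 TPM, with 3 of 5 tested lower on day 5. Markers of other lineages were higher on day 5 as well, for 2 of 3 tested endoderm and 5 of 6 amnion and trophoblast genes. Of these genes AFP, CER1, GATA3, KRT7 and TFAP2A were called higher on day 3, and SOX17, ISL1, CGA and CGB5 were not. Endoderm markers (4 genes, FOXA2 at 0 on day 5) went from 5.26 to 6.46 TPM on day 0 to 1417 to 1474 on day 5, and 6 amnion and trophoblast markers from 13.3 to 14.01 to 669 to 695 TPM. Endothelial and blood markers stayed at 4.91 to 9.16 TPM, with HBE1 and HBZ at 0 on each day, and neuroectoderm markers at 4.58 to 11.02 TPM. The part of any cell type in a carrier's change was not tested. In bulk RNA, fewer cells of a type and less RNA per cell cannot be told apart.

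RefSeq promoters (GRCh38.p14, the 250 bases before the annotated start) were on hand for 110 of the 146 carriers. The hexamer CACGTG, an E-box that reads the same on both strands, occurred in 20 of the 110, against 6.34% of 35116 promoters and 9.79% of 15133 protein-coding symbols with a promoter. By class it occurred in 11 of 46 plasma membrane, 5 of 25 SLC25A, 0 of 19 organelle and 4 of 20 unplaced genes. TGATGNAA, the core of the amino acid response element, occurred on either strand in 3 of the 110, against 3.14% of all promoters. Of the 39 carriers called in CE on day 5, 24 had a promoter, and 4 of those held CACGTG. They are shown because a promoter and a cytoplasmic call could be set side by side in them. They were picked after their values were seen. Capitals mark the hexamer, and each is written 5′ to 3′ on the strand of the gene.
SLC7A5, higher, chr16:87869508-87869757, minus strand: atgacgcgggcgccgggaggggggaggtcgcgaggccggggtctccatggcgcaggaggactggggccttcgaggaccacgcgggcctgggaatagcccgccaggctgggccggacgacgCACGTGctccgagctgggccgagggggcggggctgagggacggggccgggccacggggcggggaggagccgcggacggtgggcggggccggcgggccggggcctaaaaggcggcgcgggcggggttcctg
SLC29A1, lower, chr6:44219365-44219614, plus strand: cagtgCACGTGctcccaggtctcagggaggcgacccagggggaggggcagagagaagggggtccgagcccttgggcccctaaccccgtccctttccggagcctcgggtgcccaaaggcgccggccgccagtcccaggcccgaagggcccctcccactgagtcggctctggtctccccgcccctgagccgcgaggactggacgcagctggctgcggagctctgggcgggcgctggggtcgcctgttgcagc
SLC38A5, lower, chrX:48470261-48470510, minus strand: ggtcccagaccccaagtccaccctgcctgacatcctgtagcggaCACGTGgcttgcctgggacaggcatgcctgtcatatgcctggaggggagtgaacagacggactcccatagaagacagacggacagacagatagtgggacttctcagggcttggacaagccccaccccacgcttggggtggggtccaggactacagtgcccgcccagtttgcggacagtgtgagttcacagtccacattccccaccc
SLC43A1, lower, chr11:57515703-57515952, minus strand: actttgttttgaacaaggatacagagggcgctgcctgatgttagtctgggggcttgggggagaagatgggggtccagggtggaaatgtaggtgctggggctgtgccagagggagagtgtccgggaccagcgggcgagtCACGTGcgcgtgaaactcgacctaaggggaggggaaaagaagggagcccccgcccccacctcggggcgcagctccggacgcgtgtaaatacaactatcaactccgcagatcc

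The hexamer began 130, 245, 206 and 112 bases before the start in SLC7A5, SLC29A1, SLC38A5 and SLC43A1. All 4 encode plasma membrane carriers, of large neutral amino acids (SLC7A5 and SLC43A1), nucleosides (SLC29A1) and glutamine and related amino acids (SLC38A5). SLC38A5 had 55.9 and 58.1 TPM in day 0 CE and 12.6 and 12.9 on day 5 (-2.08), and SLC43A1 12.5 and 13.2 against 2.48 and 2.65 (-1.96). SLC43A1 was below 5 TPM in INPUT on day 5. SLC7A5 was higher where the other 3 were lower, so the shared letters went with both directions. A match is a description of these bases only.

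In the chromatin-bound and pellet extracts the carriers were sparse. CBNE libraries listed 13 and 17 of the 146 at 0 on day 0, 7 and 7 on day 3 and 20 and 14 on day 5, and PE libraries 6 and 6, then 1 and 0 on each later day. Carriers above both CE libraries on all 3 days numbered 36 in CBNE (24.7%, against 25.9% of 9870 protein-coding genes at 5 TPM or more) and 29 in PE (19.9%, against 17.4%). SLC2A8, a glucose carrier of intracellular membranes, had 233 and 195 TPM in day 0 CBNE, 371 and 395 on day 3 and 181 and 174 on day 5, against a CE mean of 24.1 TPM. SLC7A2 had 1065 and 1240 TPM in day 5 CBNE against 114 and 127 in CE. Both were named after their levels in CBNE were seen, and at this depth 1 read on 1 kb was worth at least 13.8 TPM there. Plasma membrane carriers held 43.8% to 59.4% of the carriers' TPM in CBNE and 46.9% to 67.2% in PE.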

How the data were processed

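Total RNA of 36 libraries (18 groups, each with 2) and polyA RNA of 4 libraries were analysed, grouped by their titles. The authors deposited TPM values in a table for each kind of RNA. Headers give no unit, and TPM was inferred from the column sums: they came to 989513 to 998559 over 57939 genes in total RNA and to 1000000 over 58336 genes in polyA RNA. The genome was hg38 and the tools were Salmon 1.3.0, featureCounts 1.6.2, HISAT2 2.0.5 and GATK, per the submitters' processing notes. Which tool made which table is not given in the sources used here, so it is unknown whether strand was used and how reads of overlapping genes and pseudogenes were split.

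The carriers, their placement and the other gene lists were chosen with earlier results of these data known. limma 3.58.1 (R 4.3.3) was run on log2(TPM + 1) with group means and a trended, robust variance over the 24 libraries of CE, ME, SNE and INPUT (12 residual degrees of freedom) and over the 4 polyA libraries (2 degrees). Genes with at least 1 TPM in at least 2 libraries were tested, and p-values were adjusted over all of them by the Benjamini-Hochberg method. The fit was tested on simulated data first. CBNE and PE were kept out of the fit. Named were the 12 highest carriers in INPUT and the 3 on either side of the threshold. Also named were the 4 highest and 4 lowest called differences of each comparison, and 6 carriers called on all 3 days. The last group was 27 carriers listed by name. Of these, SLC35B1 did not meet the symbol form. SLC39A7 has that form but was not among the carriers chosen, and the reason was not examined. Alternatives were other pseudocounts, no filter, other scalings, all 36 libraries, a term for library series and each library left out. Gene positions are from GENCODE 29 (hg38). Figures used matplotlib 3.10.9.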

Additional observations from a re-analysis of the deposited data

Results flagged for a closer look

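The gap between ME and CE was compared between day 0 and each later day by the interaction test of limma. A call needed a Benjamini-Hochberg adjusted p under 0.05 and a log2 difference of at least 1. The gap was higher for 16 carriers on day 3 (7.21% of all genes) and for 15 on day 5 (7.14%). Those named by level or by the size of this shift follow. From day 0 to day 3 the log2 gap rose by 1.67 for SLC35A4, 1.43 for SLC46A1, the proton-coupled folate carrier, 1.40 for SLC30A1, 1.33 for SLC25A24, an ATP-magnesium carrier of mitochondria, 1.28 for SLC1A5, 1.20 for SLC38A2, 1.17 for SLC2A3, 1.03 for SLC7A3 and 1.01 for SLC7A5. From day 0 to day 5 it rose by 1.49 for SLC30A1, 1.43 for SLC35A4, 1.34 for SLC7A8 and 1.28 for SLC7A1, both amino acid carriers of the SLC7 family, 1.13 for SLC1A5 and 1.08 for SLC38A2. The mitochondrial-encoded share of ME went from 59.6% to 61.4% on day 0 to 46.6% to 48.1% on day 5. Once totals omitted those genes 4 carriers were called higher on day 3 and 3 on day 5. Over all genes 857 were then higher and 919 lower on day 3.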

How the results depend on the processing

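Of 1941 values of named carriers under the alternatives, 1763 kept direction and call, 172 kept direction and lost the call and 6 reversed. Reversed in ME against CE on day 0 were SLC1A5 (0.22 without mitochondrial-encoded genes, 0.38 by quantile normalisation), SLC7A5 (0.23 and 0.21) and SLC25A1 (0.10, quantile), and in SNE against CE on day 5 SLC25A3 (0.10, quantile). Scaling moved most counts of called carriers. Counts over all genes moved too. By quantile normalisation ME against CE gave 1791 genes higher and 2326 lower on day 0. Days 3 and 5 gave 746 and 1218, then 924 and 1370. For SNE against CE the all-gene counts by quantile normalisation were 4048 and 4063, 3727 and 3977, and 4699 and 4880. The counts that follow are of carriers. Without mitochondrial-encoded genes, ME against CE gave 57 higher and 5 lower on day 0, 65 and 2 on day 3 and 53 and 2 on day 5, and its change with time 4 higher on day 3, and 3 higher and 1 lower on day 5. Quantile normalisation gave, in order of days, 18 and 10, 16 and 3, and 15 and 3 for ME, 29 and 26, 27 and 23, and 28 and 34 for SNE, 5 and 8 for CE on day 3, 15 lower on day 5, 5 and 2 then 3 and 2 for the change of ME with time, and 29 and 9 for polyA. A common median gave 3 higher on day 0 and 1 on day 3 for ME, 19 and 42, 15 and 43, and 21 and 53 for SNE, 11 and 8 then 18 and 14 for CE, 6 and 3 higher for the change with time, and 21 and 11 for polyA. A pseudocount of 0.5 gave 1 higher on day 0 in ME and 5 higher on day 3 in CE. A pseudocount of 5 gave 1 and 2 higher on days 3 and 5 in ME, 13 and 18 lower in CE, and 10 and 8 for the change with time. With all 36 libraries in the fit 8 and 7 were lower in ME on days 3 and 5, and the change with time had 10 and 9. A term for library series, by which day 5 SNE and 1 day 5 ME library stand apart from the other day 5 libraries, gave 13 lower in SNE on day 5.

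Leaving out each library in turn gave 0 to 1 higher and 24 to 27 lower for ME on day 0, 0 to 3 and 10 to 19 on day 3, and 4 to 6 and 13 to 16 on day 5. Its change with time gave 10 to 21 and 12 to 18 higher and 0 lower. SNE gave 56 to 57 and 16 to 18, 63 to 72 and 14 to 15, and 65 to 68 and 19 to 21. CE gave 3 to 4 and 22 to 31 on day 3, 11 and 27 to 30 on day 5, and polyA 44 to 49 and 4 to 5. An arm left with 1 library was assumed to vary like the other groups. Same-numbered libraries shared only a number: over 66 pairs of groups their deviations correlated at -0.045 to 0.059. With a replicate block 153 of 153 named values kept direction and call. Depth limits CBNE and PE most, and the small number of libraries limits all tests.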

Other observations

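Pseudogene copies carried some signal of their own. In INPUT the copies of SLC7A5 summed to 82.9 TPM over 2 genes, that of SLC9A7 to 10.6 TPM, the 9 of SLC25A5 to 2.88 TPM and the 6 of SLC25A6 to 1.75 TPM. The copies of SLC7A5 had 48.8 TPM in CE and 61.3 in ME. Of the carriers that stood above both CE libraries on all 3 days, SLC38A6 had the highest ratio of means in CBNE, 20.7, followed by SLC22A31 at 13.6, and SLC49A3 had a ratio of 10.2 in PE. These 3 were named after their values were seen and have no test at that depth.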
